A study of Mus musculus with 6 samples.

Results

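Neuroglobin and the proteins reported to bind it were followed as transcripts in subcutaneous tumours of G422, a mouse glioblastoma cell line, grown in Kunming mice, an outbred stock. The 10 genes were chosen by symbol from the 54532 Ensembl gene IDs of the count table, with earlier results of these data known. They are Ngb itself, the cytochrome c gene Cycs, the Gi alpha subunit genes Gnai1, Gnai2 and Gnai3, the flotillin genes Flot1 and Flot2, the prion protein gene Prnp, the cystatin C gene Cst3 and the channel gene Vdac1. Tumour cells carried the construct labelled shNgb (3 tumours) or the vector shVec (3 tumours), introduced by lentivirus, and all tumours are labelled untreated. Titles and source name all give the line as G422, whereas the cell line label has a different running number in each of the 6 samples, and the source name was followed. RNA was sequenced from whole tumours, so fewer cells of a type and less RNA per cell cannot be told apart. The ages of the mice, the hairpin sequence, the clonality of the 2 lines and whether each tumour came from its own mouse are not stated in the labels. The sample titles name a hairpin and the series title a knockdown, whereas the design text speaks of cells transfected with Ngb, and the sample titles were followed.

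Neuroglobin is a haem protein of the globin family, best known from neurons and retina, that binds oxygen and other small ligands. In biochemical studies it was reported to pass electrons to ferric cytochrome c, the mitochondrial protein that starts the apoptosome once released to the cytosol, and the human protein was reported to hold Gi alpha subunits in their GDP-bound form. The raft proteins flotillin, the prion protein, the protease inhibitor cystatin C and VDAC, the pore of the outer mitochondrial membrane, were reported as further binding partners. These contacts are between proteins, and the values below are levels of messenger RNA.

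The shNgb libraries held 21018697, 23913765 and 25620667 reads and the shVec libraries 22427004, 20005933 and 19630319. Of 9 glial and progenitor markers, Olig2 and Aqp4 had 0 reads in all 6 tumours, Gfap, Slc1a3 and S100b had 0 to 6, and Nes, Sox2, Cspg4 and Aldh1l1 passed the filter on low counts. Of 9 neuronal markers, Snap25 had 0 reads in all 6, Rbfox3, Syt1, Stmn2, Slc17a7 and Gad1 had 0 to 5, and Tubb3 (230 to 696 reads), Map2 (32 to 122) and Nefl (10 to 31) passed the filter. Levels are given as CPM (counts scaled to library size with TMM factors, for comparison between tumours) and as the authors' deposited FPKM (per kilobase of exon, for comparison between genes). Differences are log2 fold changes, shNgb minus shVec, from edgeR's quasi-likelihood test, called at an adjusted p under 0.05.

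Cytochrome c is the partner whose reads can be shared with other loci, so its first 60 coding bases are shown beside those of the 3 copies that had reads. Capitals mark bases that differ from Cycs, and positions count from 1 at the A of the start codon. The sequences are from the GENCODE M21 transcripts (build GRCm38), in the sense direction.
Cycs: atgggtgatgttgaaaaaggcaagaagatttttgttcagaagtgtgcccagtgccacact
Gm10053: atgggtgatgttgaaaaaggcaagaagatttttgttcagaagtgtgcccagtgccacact
Gm10108: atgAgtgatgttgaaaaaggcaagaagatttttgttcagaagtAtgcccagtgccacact
Gm13772: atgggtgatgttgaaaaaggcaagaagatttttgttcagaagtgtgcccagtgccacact
Over the 315 coding bases Gm10053 had 0 differences from Cycs, and Gm10108 (G4A and G44A) and Gm13772 had 2 each.

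The 3 Gi alpha genes are shown by their last 60 coding bases, since their counts can be compared as separate genes where their sequences differ. Capitals mark bases that differ from Gnai2.
Gnai2: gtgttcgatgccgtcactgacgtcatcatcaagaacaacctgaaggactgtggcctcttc
Gnai1: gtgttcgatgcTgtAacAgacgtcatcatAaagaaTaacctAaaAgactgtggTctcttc
Gnai3: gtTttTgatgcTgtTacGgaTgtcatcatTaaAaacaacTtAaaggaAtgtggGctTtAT
In this stretch Gnai1 differed from Gnai2 at 8 bases and Gnai3 at 15. Over the aligned coding sequence the identity was 78.7% between Gnai1 and Gnai2, 78.4% between Gnai1 and Gnai3 and 74.7% between Gnai2 and Gnai3.

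All partner transcripts except Gnai1 were more abundant than that of neuroglobin itself. Vdac1 stood first at 142 ± 4.52 FPKM in shNgb tumours and 147 ± 3.82 FPKM in shVec tumours (SD, n = 3 each), and its level exceeded that of 99.0% of the 27834 genes with reads. Gnai2, Cst3, Gnai3 and Prnp followed with means over the 6 tumours of 77.0, 62.8, 62.5 and 53.5 FPKM, and neighbours among these 4 had overlapping ranges. Cycs (37.9 FPKM) and Flot2 (32.2 FPKM) also overlapped each other, and Cycs lay below Prnp without overlap. Flot1 was 7.14-fold below Flot2 at 4.51 FPKM, Ngb was 9.08-fold below Flot1 at 0.497 FPKM, and Gnai1 was last at 0.0956 FPKM, and these 3 steps showed no overlap of ranges. Ngb thus ranked above 49.7% and Gnai1 above 31.1% of the genes with reads. FPKM here divides by the union of exons. Its excess over the longest protein-coding transcript differed between genes. The lengths were 2893 against 1825 bases for Flot1, 2740 against 2699 for Flot2, 1266 against 860 for Cst3 and 3262 in both for Gnai3. The order of near neighbours, their overlap and the size of the steps thus depend on the length used.

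**Figure D1:**
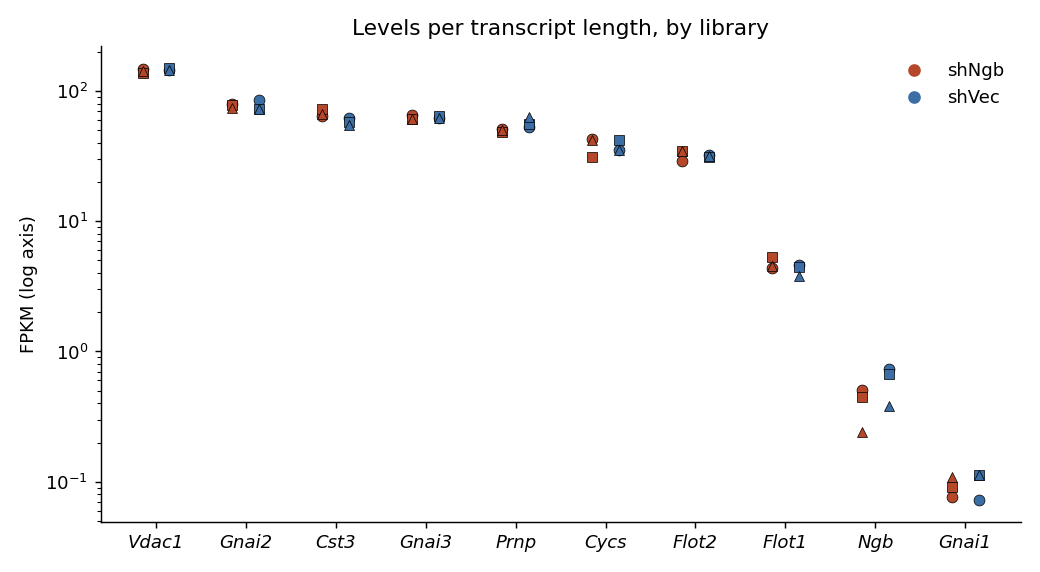
FPKM of each gene (log axis) in each of the 6 tumours, ordered by mean level, with shNgb in red and shVec in blue and 1 symbol per replicate number. Vdac1 lies highest at 138 to 151 FPKM, Ngb at 0.242 to 0.738 FPKM and Gnai1 at 0.0724 to 0.113 FPKM.

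None of the partner genes, nor Ngb, passed the test between shNgb and shVec. Of the 10 genes, 9 passed the filter on low counts and 0 of 9 were called, and over all 15203 tested genes the share called was 0% (0 genes in edgeR, with 392 at an unadjusted p under 0.05). In limma-voom 0 genes were called and 2.70% had an unadjusted p under 0.05. In DESeq2 5 genes were called (0.0180%), none of them among the 10, and 1.71% had an unadjusted p under 0.05. The 9 genes had 5 positive and 4 negative log2 fold changes with a median of 0.0067, against 50.9% positive and a median of 0.0026 over all tested genes. An unadjusted p under 0.05 was reached by 2 of the 9 genes, Cst3 and Prnp, against 2.58% of all tested genes (1.35% higher and 1.22% lower in shNgb). The same 2 genes were those whose CPM did not overlap between the groups, Cst3 higher and Prnp lower in shNgb, a separation seen in 7.10% of tested genes (3.67% higher and 3.43% lower in shNgb). The edgeR adjusted p was 0.9997 for each of the 9.

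**Figure D2:**
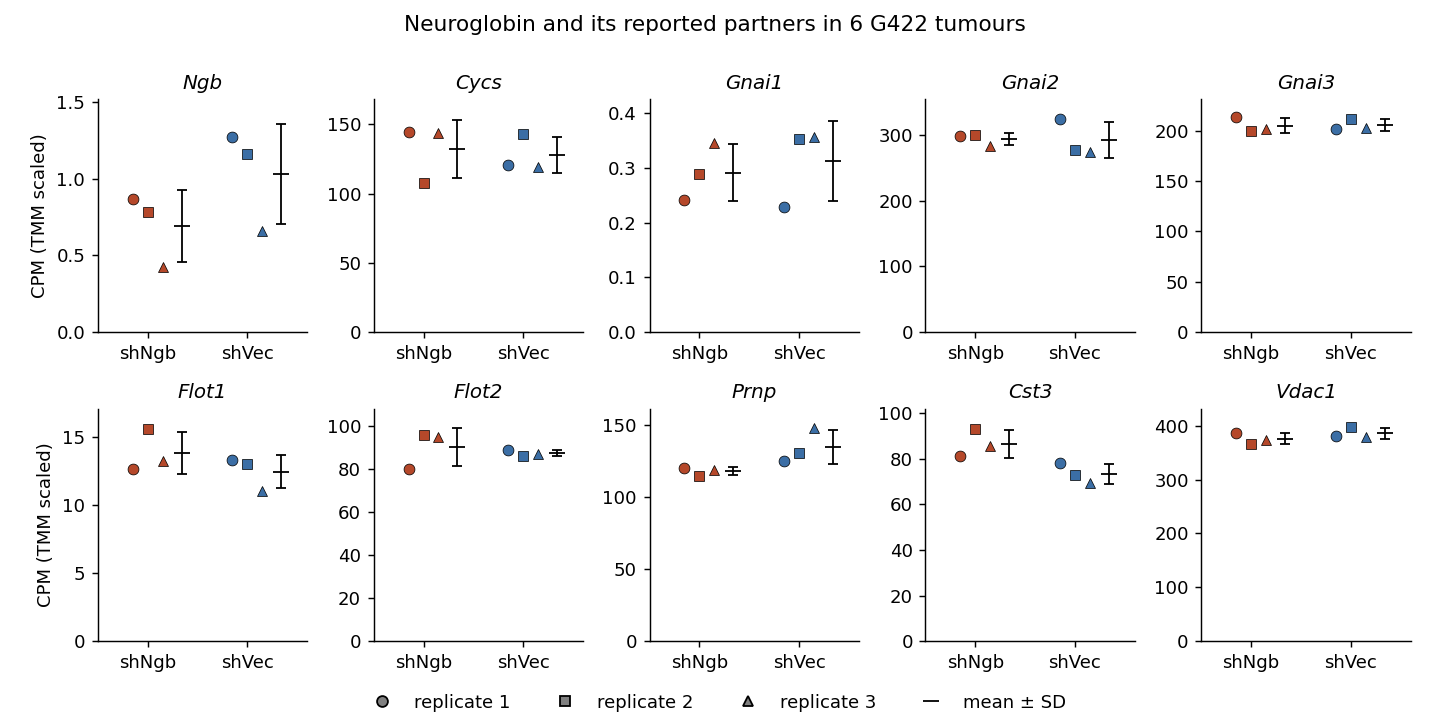
CPM of the 10 genes in each tumour, shNgb left of shVec, with the mean ± SD of 3 tumours beside the points and each axis starting at 0. The groups separate in Prnp (115 to 120 CPM in shNgb, 125 to 147 in shVec) and in Cst3 (81.2 to 93.1 in shNgb, 69.2 to 78.0 in shVec) and overlap in the other 8 genes.

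Ngb, the targeted gene, lies on chromosome 12 (87097531 to 87102539, minus strand, GRCm38), and its counts cover all exons rather than the stretch a hairpin would bind. It had 18, 19 and 11 reads in the shNgb libraries and 28, 23 and 13 in the shVec libraries. As CPM these were 0.868, 0.782 and 0.422 in shNgb and 1.28, 1.16 and 0.662 in shVec. The shNgb tumours lay lower on average, but shVec replicate 3 lay below shNgb replicates 1 and 2. The log2 fold change was -0.59 (SE 0.42, 95% interval -1.55 to 0.37, edgeR adjusted p = 0.9997), so folds from 0.341 to 1.29 remained within the interval. Its moderated variation between tumours of a group was 30.9%, higher than in 85.1% of tested genes, where the median gene had 14.8%. Without shNgb replicate 3 the value was -0.33, and without shVec replicate 3 it was -0.83.

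Among 11597 named genes of at least 1 CPM, the 5 whose course over the 6 tumours lay nearest to that of Ngb were Col13a1, Kctd11, Aldoc, Abhd18 and Prdm8. The measure was the root mean square difference of centred log2 CPM over 6 libraries, 0.13, 0.14, 0.16, 0.18 and 0.19, against a median of 0.49 over the ranked genes and 0.47 for Ngb about its own mean. Kctd11, for example, stood at 83.1, 63.5 and 37.7 CPM in shNgb and 116.6, 82.8 and 61.2 CPM in shVec. Aldoc, an aldolase isoform of brain, stood at 12.0, 10.6 and 6.59 CPM in shNgb and 15.6, 12.0 and 10.2 CPM in shVec. In each of these genes, as in Ngb, replicate 3 was the lowest tumour of its group. The genes were picked for nearness to Ngb, so this shared order follows from the choice and is no separate result. With 11 to 28 reads the course of Ngb itself carries a large counting error.

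Other globins were present at low to moderate levels. Of the list of 8 globin genes, which includes Ngb, 5 were tested and 0 were called in either direction. With Ngb counted among the negative ones, 2 were positive and 3 negative, with a median log2 fold change of -0.014. Cygb, which encodes the widely expressed cytoglobin, stood at 2.26 ± 0.865 FPKM in shNgb and 2.29 ± 0.945 FPKM in shVec, above Ngb in every tumour. The blood globin Hba-a1 stood at 19.2, 25.1 and 35.5 CPM in shNgb and 18.4, 21.5 and 10.3 CPM in shVec (log2 fold change 0.67, SE 0.31, edgeR adjusted p = 0.9997), and Hbb-bt at 1.31 ± 0.656 CPM in shNgb and 1.18 ± 0.179 CPM in shVec. Hbb-bs, the more abundant beta globin, stood at 4.82, 8.02 and 12.4 CPM in shNgb and 7.61, 12.4 and 6.41 CPM in shVec (log2 fold change -0.060, SE 0.37, edgeR adjusted p = 0.9997). Mb, the muscle globin, had 0 to 10 reads in shNgb and 0 to 33 in shVec, and Adgb, androglobin, had 0, 15 and 46 reads in shNgb and 1, 0 and 0 in shVec. Neither Mb nor Adgb was tested.

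Cytochrome c messenger RNA varied within both groups, and no difference between them passed the test. Cycs (chromosome 6, 50562563 to 50566538, minus strand) stood at 144.8, 108.0 and 144.1 CPM in shNgb and 121.0, 142.8 and 119.3 CPM in shVec. The lowest tumour was shNgb replicate 2 and the highest shNgb replicate 1, so the shVec range lay within that of shNgb. The log2 fold change of Cycs was 0.051 (SE 0.13, 95% interval -0.24 to 0.34, edgeR adjusted p = 0.9997), which bounds the fold between 0.848 and 1.26. Without shNgb replicate 1 it was -0.021, and without shNgb replicate 2 it was 0.18. Of 4 near-identical copies, 3 had reads, and together they held 7.97% to 10.3% of the reads of Cycs and its copies, most of them in Gm10053 on chromosome 19, with 251, 285 and 326 reads in shNgb and 225, 292 and 230 in shVec. Because the coding bases printed above are the same in Gm10053 and Cycs, how the authors' counting split such reads is uncertain. Summed with its copies, Cycs had a log2 fold change of 0.046 (SE 0.12). The testis form Cyct had 2 reads in shNgb replicate 3 and 0 in the other tumours.

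Of the list of cytochrome c and apoptosome genes, 17 of 18 were tested and 0 were called in either direction, with 14 positive, 3 negative and a median log2 fold change of 0.048. Aifm1, a mitochondrial flavoprotein of the intermembrane space, stood at 109.8 ± 8.19 CPM in shNgb and 103 ± 11.3 CPM in shVec (SD, n = 3 each), and its log2 fold change of 0.098 had an SE of 0.099. Apaf1 and Casp9, which form the apoptosome with cytochrome c, had log2 fold changes of 0.016 (SE 0.12) and 0.11 (SE 0.24). The haem lyase Hccs, which attaches haem to cytochrome c, had 0.094 (SE 0.11). Each of these 4 genes had an edgeR adjusted p of 0.9997.

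Transcripts of Gi alpha subunits, proteins that couple receptors to the inhibition of adenylyl cyclase, came almost entirely from Gnai2 and Gnai3 in these tumours. Gnai2 (chromosome 9, 107614125 to 107635367, minus strand) stood at 299, 299 and 283 CPM in shNgb and 325, 277 and 275 CPM in shVec. The shNgb tumours lay inside the range of the shVec tumours, whose replicate 1 was highest. The difference between the groups was 0.0067 on the log2 scale (SE 0.083, 95% interval -0.18 to 0.20). Gnai3 (chromosome 3, 108107280 to 108146146, minus strand) stood at 213, 200 and 202 CPM in shNgb and 202, 212 and 203 CPM in shVec, with a log2 fold change of -0.0041 (SE 0.067, 95% interval -0.16 to 0.15). The intervals place the fold of Gnai2 between 0.881 and 1.15 and that of Gnai3 between 0.897 and 1.11, and the direction of each turned under some alternatives. Gnai1 (chromosome 5, 18265135 to 18360355, minus strand), the form known as abundant in brain, had 5, 7 and 9 reads in shNgb and 5, 7 and 7 in shVec and did not pass the filter on low counts.

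The shares of the Gi alpha genes differed between the groups by less than the SD of the shVec tumours. Gnai2 supplied 55.3% ± 0.962 of the summed FPKM of the 3 genes in shNgb and 55.0% ± 2.75 in shVec (two-sided exact permutation p = 1, where 3 against 3 allows no p under 0.1). Gnai3 supplied 44.7% ± 0.961 in shNgb and 44.9% ± 2.73 in shVec (exact permutation p = 1), and Gnai1 0.0664% ± 0.0136 in shNgb and 0.0716% ± 0.0194 in shVec (exact permutation p = 0.8). The single shares of Gnai2 ran from 54.7% to 56.4% in shNgb and from 53.0% to 58.1% in shVec. The split between Gnai2 and Gnai3 depends on the length used. Gnai2 has 3779 bases in the union of exons and 2215 in its longest protein-coding transcript, and Gnai3 has 3262 in both. With the longest transcript the share of Gnai2 would be higher. The differences between the groups were then 0.257 points for Gnai2 and -0.253 for Gnai3.

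**Figure D3:**
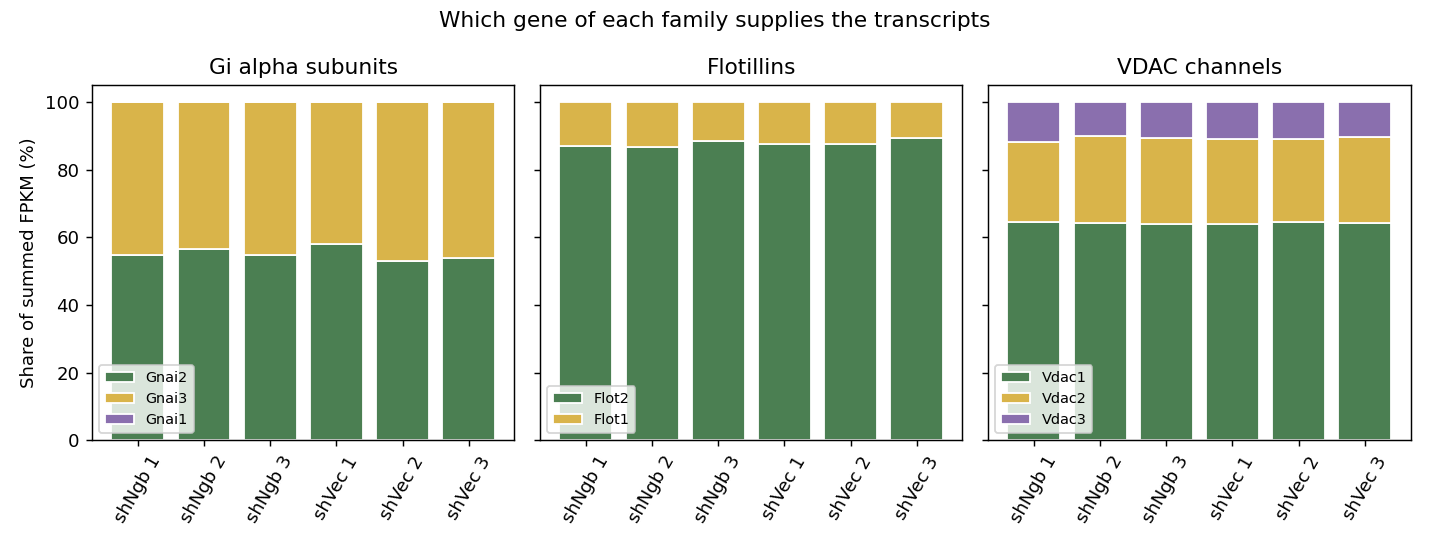
Share of the summed FPKM (stacked to 100%) supplied by each gene of the Gi alpha, flotillin and VDAC families in each tumour, shNgb to the left of shVec. Gnai2 and Gnai3 split the Gi alpha FPKM with Gnai1 under 0.1%, Flot2 supplies 86.7% to 89.3% of flotillin FPKM, and Vdac1 supplies 63.8% to 64.5% of VDAC FPKM. The size of a share depends on the gene lengths used for FPKM.

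Of the 30 G protein subunits and Gi regulators listed, 27 were tested and 0 were called in either direction (12 positive, 15 negative, median log2 fold change -0.0079), and 2 of 27 had an unadjusted p under 0.05, against 2.58% of all tested genes. These were Gnao1, the Go alpha subunit of neurons, and Rgs10, which speeds GTP hydrolysis by Gi alpha. Gnao1 had 15, 16 and 15 reads in shNgb and 40, 20 and 39 in shVec, without overlap in CPM, as in 7.10% of tested genes (0.652 ± 0.0744 CPM in shNgb and 1.61 ± 0.524 CPM in shVec, log2 fold change -1.30, SE 0.37, edgeR adjusted p = 0.9997). Rgs10 stood at 2.03, 3.58 and 3.30 CPM in shNgb and 1.55, 2.07 and 1.53 CPM in shVec, with overlap (log2 fold change 0.79, SE 0.31, edgeR adjusted p = 0.9997). Rgs14, a further regulator of G protein signalling, stood at 1.37 ± 0.38 CPM in shNgb and 0.879 ± 0.0724 CPM in shVec. It too was without overlap, as in 7.10% of tested genes (log2 fold change 0.65, SE 0.34, edgeR adjusted p = 0.9997). Gnaz had 0 reads in all 6 tumours. The abundant partners Gnb1 and Gnb2, beta subunits of the heterotrimer, had log2 fold changes of -0.045 (SE 0.081) and -0.0079 (SE 0.077).

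Flotillin transcripts came mainly from Flot2. Flot2 (chromosome 11, 78037931 to 78060434, plus strand) stood at 80.2, 95.9 and 94.8 CPM in shNgb and 89.0, 86.2 and 87.0 CPM in shVec. The shVec tumours lay close together, between the lowest and the other 2 shNgb tumours. Flot1 (chromosome 17, 35823230 to 35832791, plus strand), the form reported to bind neuroglobin, stood at 12.6, 15.6 and 13.3 CPM in shNgb and 13.3, 13.0 and 11.05 CPM in shVec, with overlap of the groups. The log2 fold changes were 0.15 (SE 0.15, 95% interval -0.19 to 0.49) for Flot1 and 0.047 (SE 0.088, 95% interval -0.15 to 0.25) for Flot2. Flot1 supplied 12.7% ± 0.866 of flotillin FPKM in shNgb and 11.9% ± 0.991 in shVec (exact permutation p = 0.4). Flot1 has 2893 bases in the union of exons and 1825 in its longest protein-coding transcript. With the latter as length its share would be higher, and the difference between the groups was 1.09 points, against 0.799 with FPKM.

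Of the 12 genes of flotillins, caveolins, cavins and related membrane scaffolds, 11 were tested and 0 were called in either direction (8 positive, 3 negative, median log2 fold change 0.0098). Ehd2, an ATPase of the caveolar neck, stood at 135 ± 13.3 CPM in shNgb and 117 ± 24.5 CPM in shVec. The caveolar coat genes Cavin3 (51.2 ± 3.43 CPM in shNgb and 53.4 ± 2.91 CPM in shVec) and Cavin1 (190.5 ± 23.7 CPM in shNgb and 197 ± 17.8 CPM in shVec) overlapped between the groups. Cav1, the main caveolin, had 980, 1924 and 1790 reads in shNgb and 724, 1484 and 1767 in shVec, and its log2 fold change of -0.017 had an SE of 0.38.

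Prnp was lower in every shNgb tumour than in any shVec tumour, without passing the test over all genes. Prnp (chromosome 2, 131909928 to 131938429, plus strand), which encodes the membrane-anchored cellular prion protein, stood at 120, 115 and 119 CPM in shNgb and 125, 130 and 147 CPM in shVec. The shNgb tumours were close together, and shVec replicate 3 stood apart at the top. The log2 fold change was -0.19 (SE 0.082, 95% interval -0.37 to -0.0034, edgeR adjusted p = 0.9997), a fold of 0.877. Its p before adjustment was 0.0467 in the edgeR fit over all genes. Without shVec replicate 3 the log2 fold change was -0.12. Prn, an annotated readthrough gene at the same locus that shares 145 exon bases with Prnp, had 0 to 3 reads, and Prnd, the neighbouring doppel gene, had 0 in all 6 tumours.

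**Figure D4:**
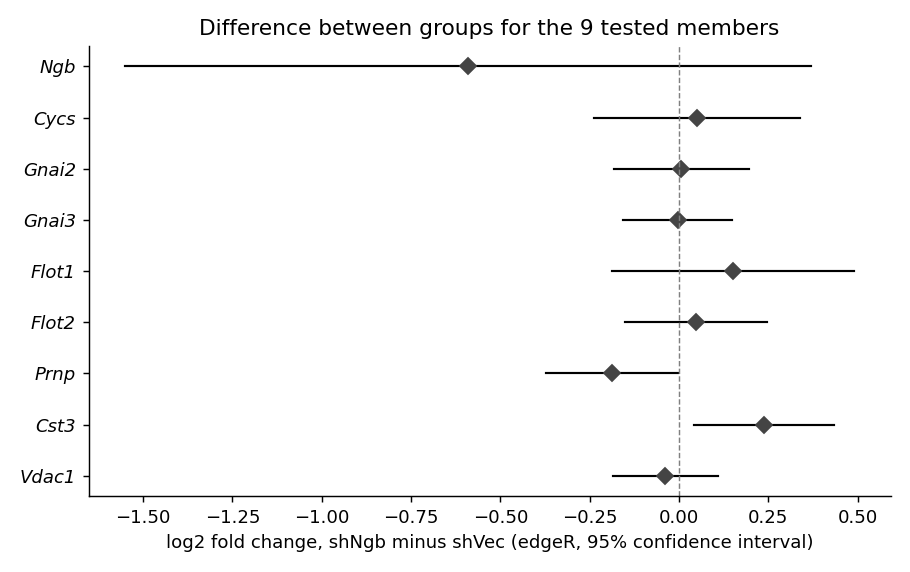
Log2 fold change (shNgb minus shVec) with its 95% confidence interval for the 9 genes that passed the filter on low counts. The intervals of Cst3 (0.042 to 0.43) and Prnp (-0.37 to -0.0034) leave out 0 before adjustment over all genes, and that of Ngb is the widest (-1.55 to 0.37).

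Of the 10 genes listed for the prion family, its processing and its partners, 8 were tested and 0 were called in either direction (3 positive, 5 negative, median log2 fold change -0.023), and 2 of 8, Prnp and Ncam1, had an unadjusted p under 0.05, against 2.58% of all tested genes. Ncam1, a neural cell adhesion molecule, stood at 26.2, 20.4 and 18.7 CPM in shNgb and 23.6, 30.2 and 30.7 CPM in shVec (log2 fold change -0.37, SE 0.16, edgeR adjusted p = 0.9997). Shedding of the prion protein is carried out mainly by the protease Adam10, whose log2 fold change was 0.043 (SE 0.078). Fyn, a Src family kinase, stood at 62.2 ± 5.30 CPM in shNgb and 67.1 ± 5.37 CPM in shVec, and the cochaperone Stip1 at 450.5 ± 77.6 CPM in shNgb and 406.3 ± 55.5 CPM in shVec. The 9 glial and progenitor markers summed to 735, 715 and 689 CPM in shNgb and 806, 853 and 846 CPM in shVec, without overlap. Most of this sum came from Nes and Cspg4. Of the 9 markers, 4 were tested, all with a negative log2 fold change, and 0 were called. Only Nes, 1 of these 4, had an unadjusted p under 0.05, against 2.58% of all tested genes. Nes stood at 439, 383 and 420 CPM in shNgb and 477, 545 and 496 CPM in shVec, without overlap, as in 7.10% of tested genes. Cspg4 (275, 305 and 253 CPM in shNgb, 298, 290 and 327 CPM in shVec), Sox2 and Aldh1l1 overlapped between the groups. The separation of the sum was thus that of Nes. The part of cells with these markers in the Prnp difference was not tested.

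Cst3 was higher in every shNgb tumour than in any shVec tumour, likewise without passing the test over all genes. Cst3 (chromosome 2, 148871722 to 148875692, minus strand) encodes cystatin C, a secreted inhibitor of cysteine cathepsins. It stood at 81.2, 93.1 and 85.4 CPM in shNgb and 78.0, 73.0 and 69.2 CPM in shVec. The gap between the groups, from shNgb replicate 1 to shVec replicate 1, was small beside the range within each group. The log2 fold change was 0.24 (SE 0.086, 95% interval 0.042 to 0.43, edgeR adjusted p = 0.9997), a fold of 1.18. Its p before adjustment was 0.0226 in the edgeR fit over all genes. Leaving out 1 tumour at a time gave log2 fold changes between 0.18 and 0.28.

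Of the 17 cystatins and cathepsins, 15 were tested and 0 were called in either direction, with 12 positive, 3 negative and a median log2 fold change of 0.098. Only Cst3, 1 of the 15, had an unadjusted p under 0.05, against 2.58% of all tested genes. Ctsh, an aminopeptidase of lysosomes, stood at 7.52, 16.1 and 23.2 CPM in shNgb and 5.56, 10.8 and 8.15 CPM in shVec (log2 fold change 0.94, SE 0.42, edgeR adjusted p = 0.9997). Lgmn, the asparaginyl endopeptidase, stood at 122 ± 18.0 CPM in shNgb and 104 ± 10.9 CPM in shVec, and Ctsa, a lysosomal carboxypeptidase, at 112 ± 7.94 CPM in shNgb and 101 ± 6.02 CPM in shVec. The abundant cathepsins Ctsb and Ctsl had log2 fold changes of 0.059 (SE 0.11) and -0.013 (SE 0.19). Cstb, the cytosolic cystatin B, had 0.081 (SE 0.11).

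Macrophages also express Cst3 strongly, and their 15 markers summed to 202, 359 and 443 CPM in shNgb and 155, 322 and 249 CPM in shVec. The groups overlapped in this sum, all 15 markers had reads in every tumour, and 14 of 15 had a positive log2 fold change (median 0.54, 0 called). An unadjusted p under 0.05 was reached by 1 of the 15, Fcgr1, against 2.58% of all tested genes. Replicate 1 had the lowest macrophage sum of its group in both groups, and its Cst3 was the lowest of the shNgb tumours and the highest of the shVec tumours. Ctss, a cathepsin of macrophages, stood at 35.2, 81.0 and 105.5 CPM in shNgb and 26.4, 64.05 and 39.2 CPM in shVec, the same order within each group as the macrophage sum. The 9 T and NK cell markers summed to 4.73, 14.7 and 23.1 CPM in shNgb and 4.65, 11.7 and 4.17 CPM in shVec, with overlap, and 8 of 8 tested had a positive log2 fold change (median 1.13, 0 called).

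The 8 fibroblast markers summed to 1168 to 2487 CPM in shNgb and 1708 to 2074 CPM in shVec, with overlap, and 6 of 7 tested had a positive log2 fold change (median 0.41, 0 called). An unadjusted p under 0.05 was reached by 2 of these 7, Col1a1 and Col1a2, against 2.58% of all tested genes. The collagen gene Col1a1, of this list, stood at 354, 209.7 and 280.7 CPM in shNgb and 196.5, 139.2 and 130.1 CPM in shVec, without overlap, as in 7.10% of tested genes (log2 fold change 0.86, SE 0.23, edgeR adjusted p = 0.9997). Col3a1, the most abundant marker of the list, had the 1 negative value. Col3a1 stood at 1666, 1514 and 605 CPM in shNgb and 1582, 1345 and 1476 CPM in shVec, with overlap (log2 fold change -0.22, SE 0.36, edgeR adjusted p = 0.9997). The part of macrophages, T and NK cells and fibroblasts in the Cst3 difference was not tested.

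**Figure D5:**
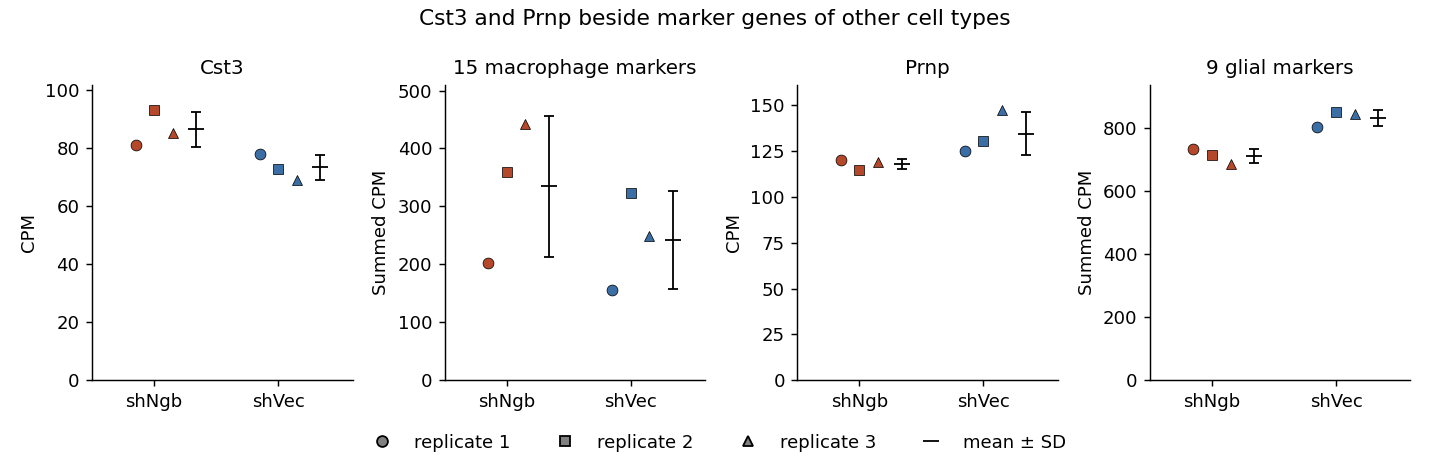
CPM of Cst3 and Prnp and summed CPM of 15 macrophage and 9 glial markers in each tumour, shNgb left of shVec, with mean ± SD of 3 tumours and axes from 0. The macrophage sum spans 202 to 443 CPM in shNgb and 155 to 322 CPM in shVec and overlaps, while the glial sum (689 to 735 in shNgb, 806 to 853 in shVec), Cst3 and Prnp do not. Nes and Cspg4 make up most of the glial sum.

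Vdac1 had the lowest moderated variation between tumours of a group among the 9 genes that passed the filter, with Gnai3 close to it. Vdac1 (chromosome 11, 52360860 to 52389397, plus strand), the main channel for metabolites across the outer mitochondrial membrane, stood at 387, 367 and 374 CPM in shNgb and 382, 398 and 379 CPM in shVec, with overlap of the groups. The moderated variation of Vdac1 was 7.29%, against 7.47% for Gnai3, and 0.191% of tested genes had a lower one than Vdac1. The log2 fold change was -0.039 (SE 0.065, 95% interval -0.19 to 0.11), which bounds the fold between 0.879 and 1.078. Vdac1 supplied 64.2% ± 0.252 of the summed FPKM of Vdac1, Vdac2 and Vdac3 in shNgb and 64.1% ± 0.329 in shVec (exact permutation p = 0.9). Vdac2 supplied 25.0% ± 1.09 in shNgb and 25.1% ± 0.435 in shVec (exact permutation p = 0.8), and Vdac3 10.8% ± 0.872 in shNgb and 10.8% ± 0.321 in shVec (exact permutation p = 1).

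Of the 14 genes listed for VDACs, the outer mitochondrial membrane and their mitochondrial partners, all 14 were tested. In either direction 0 were called (6 positive, 8 negative, median log2 fold change -0.032). Hk2, a hexokinase that docks on VDAC, had the smallest p of the list (edgeR unadjusted p = 0.00167). It was the 1 gene of 14 with an unadjusted p under 0.05, against 2.58% of all tested genes. Hk2 stood at 90.8, 77.9 and 82.2 CPM in shNgb and 111.1, 121.5 and 102.1 CPM in shVec, without overlap, as in 7.10% of tested genes (log2 fold change -0.42, SE 0.094, edgeR adjusted p = 0.9997). Hk1, the other hexokinase that binds VDAC, stood at 99.8 ± 5.58 CPM in shNgb and 106.3 ± 9.04 CPM in shVec with overlap. Hspa9, the mitochondrial chaperone that links VDAC to calcium transfer from the endoplasmic reticulum, stood at 1139, 966 and 967 CPM in shNgb and 1147, 1122 and 1209 CPM in shVec, also with overlap. The adenine nucleotide carriers Slc25a4 and Slc25a5 had log2 fold changes of 0.024 (SE 0.065) and -0.077 (SE 0.084).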

How the data were processed

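RNA sequencing of 6 tumours (3 shNgb, 3 shVec) was used, with groups and replicate numbers from the sample titles. The design text calls the tumours of a group independent, and no label says that each came from its own mouse. The p-values treat the tumours as independent, which would not hold for tumours that shared a mouse. They cannot separate the construct from any other difference between the shNgb and shVec cells. Per the labels' protocols, Trizol was used for extraction and an Illumina TruSeq RNA kit, which leaves strand unmarked, for the libraries. The submitters' processing notes list Bowtie 0.12.2, mm8 and mm10 and assign them no role. No counting tool is stated. The authors deposited raw read counts per Ensembl gene, and 1 table of FPKM per sample. The length implied by the deposited FPKM equalled the union of exons in GENCODE M21 (GRCm38) in all 10 genes, and in 10530 of 11105 annotated genes with over 50 reads in every library (relative tolerance 0.0001). Symbols from that annotation named 54409 of 54532 IDs.

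Counts were filtered with edgeR's default (15203 genes kept), scaled by TMM and tested with the robust quasi-likelihood F-test (edgeR 4.0.16, R 4.3.3) with Benjamini-Hochberg adjustment over all tested genes. Standard errors and 95% intervals were derived from the F statistic. Shares within a family used FPKM and a two-sided exact permutation test. Centred log2 CPM used a prior count of 2. Copies were sought with blastn 2.17.0 at 95% identity over 250 bases. The fit was tested on simulated counts. Fits were repeated with 2 other scalings (RLE, upper quartile), without a low-count filter beyond 1 read, with a filter of 10 reads and 1 CPM in 3 libraries, in DESeq2 1.42.0, by limma-voom (3.58.1), with replicate number added as a block term, with Cycs and its copies summed, and without each library. Shares were also computed per base of the longest protein-coding transcript of each gene.

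The genes and lists were chosen with earlier results of these data known. Named genes were the 10 genes, the 3 genes of smallest p with at least 1 CPM from each list (2 where fewer than 8 were tested) and the 5 nearest to Ngb. Other list genes named were picked for their role, after their values could be seen. Some genes that the rule for named genes picks are not reported here.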

Additional observations from a re-analysis of the deposited data

How the results depend on the processing

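Calls over all genes numbered 0 in edgeR with TMM. They numbered 3 without a filter beyond 1 read (832 genes at an unadjusted p under 0.05, of 27834 tested), 5 in DESeq2, 1 with the replicate block (426 at an unadjusted p under 0.05), and 0 with RLE or upper quartile scaling, the strict filter, limma-voom, copies summed and each library left out (216 to 784 at an unadjusted p under 0.05). The calls were Klf4, Ppp1r15a and Nlrp1c-ps without a filter, Rpl17-ps10, Klf4, Ppp1r15a, Hmgn2 and Col1a1 in DESeq2, and Rpl17-ps10 with the block. Col1a1 is one of the fibroblast markers, and none was one of the 10 genes or of the 7 pathway lists. The cause of these differences was not tested. Same-numbered libraries had correlations of 0.26, -0.14 and -0.099 of their deviations from group means, against -0.26 to 0.33 for libraries of unlike number. Of the shNgb libraries, replicate 1 correlated best with its own number, and replicates 2 and 3 did not. With 3 tumours in each group, these values cannot decide whether same-numbered tumours shared a batch.

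Ngb, Flot1, Flot2, Prnp, Cst3 and Vdac1 kept their direction under every alternative that gave a value, though not their size, and Ngb did not pass the strict filter. Flot1 was 0.057 and Flot2 0.0025 without shNgb replicate 2, Flot1 was 0.070 without shVec replicate 3, Flot2 was 0.0078 without shNgb replicate 3 and 0.12 without shNgb replicate 1, and Vdac1 ran from -0.062 (shNgb replicate 1 left out) to -0.017 (shVec replicate 2 left out). The unadjusted p of Cst3 ran from 0.0152 to 0.0912 and was under 0.05 in 9 of 13 alternatives, and that of Prnp ran from 0.0279 to 0.192 and was under 0.05 in 3 of 13. The log2 fold change of Gnai3 turned positive with upper quartile scaling (0.013) and without a filter (0.0023). With each library left out in turn it ran from -0.035 to 0.018, that of Gnai2 from -0.039 to 0.087 and that of Cycs from -0.021 to 0.18. Differences in share, in points, shNgb minus shVec, then ran from -0.016 to 0.0013 for Gnai1, -0.72 to 1.84 for Gnai2, -1.82 to 0.721 for Gnai3, 0.228 to 1.29 for Flot1, -0.14 to 0.157 for Vdac1, -0.559 to 0.504 for Vdac2 and -0.406 to 0.464 for Vdac3. The list medians that changed sign with 1 library left out ran from -0.15 to 0.28 for globins, -0.042 to 0.035 for G proteins, -0.043 to 0.12 for flotillins and caveolins and -0.056 to 0.0026 for VDAC partners. The cause of these turns was not tested. With 11 to 28 reads a library, depth limits Ngb, and with 5 to 9 reads Gnai1 could not be tested.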
